A study of Homo sapiens with 12 samples.

Results

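Wild-type SPOP was compared with an empty control vector in LNCaP-Abl cells, and every named gene detected on at least 2 of the 12 arrays of the series at a detection p-value under 0.05 entered the comparison. These were 12227 of the 20046 named genes on the array, measured on 3 wild-type SPOP arrays and 3 control vector arrays. LNCaP-Abl is an established human prostate cancer cell line obtained from LNCaP by long-term growth without androgen. The groups were cells transfected with wild-type SPOP, cells transfected with SPOP F102C, F133V or F133L (2 arrays each, used here only beside the main comparison) and cells transfected with control vector. All groups, control vector included, were kept in charcoal-stripped serum, which is poor in steroids, and received doxycycline to switch on the construct. The samples are described as biological replicates. The sources used here do not give whether the arrays of a group came from 1 transfected line or from several. Hence the effect of the construct and a difference between transfected lines cannot be told apart, and the p-values cover only the spread among these arrays.

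SPOP is the part of a ubiquitin ligase that chooses the substrate. Its MATH domain holds the target protein and its BTB domain binds the scaffold CUL3, so that the target is tagged with ubiquitin and usually sent to the proteasome. In prostate cancer SPOP is recurrently mutated in the MATH domain, and its known targets include transcriptional coactivators, chromatin readers and the androgen receptor. The ligase acts on proteins, whereas the arrays measured RNA.

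Between 18906 and 19175 probes were detected on the wild-type SPOP arrays and between 19272 and 19677 on the control vector arrays, with median intensities of 120 to 126 and 123 to 130. Over the tested genes, Pearson r was 0.994 to 0.995 between arrays of the same group and 0.988 to 0.990 between a wild-type SPOP and a control vector array. Of 12 measured markers of prostate cancer lines, 11 were detected on all 6 arrays, including FOXA1, HOXB13, KLK2 and EPCAM. The leukocyte marker PTPRC, the basal keratins KRT5 and KRT14, the collagen COL1A1 and 9 of 10 endothelial markers were detected on none of them. Detected on all 6 were 3 of 13 immune markers (CD8A, CD68 and LCP1), 1 of 12 fibroblast markers (ACTA2) and 3 of 20 basal and mesenchymal markers (VIM, S100A6 and ITGA6). In such bulk RNA, fewer cells of a type and less RNA per cell cannot be told apart. Levels are normalized log2 intensities, differences are wild-type SPOP minus control vector on that scale, and a gene was called at an adjusted p under 0.05 (limma with Benjamini-Hochberg adjustment over all 12227 genes).

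Over all tested genes, 752 changed, which is 6.15% of those tested. Of these, 377 rose with wild-type SPOP (3.08%) and 375 fell (3.07%). Most of the changes were small. A total of 435 genes changed by under 1.5-fold, 233 by 1.5 to 2-fold and 84 by over 2-fold (0.687%), of which 36 rose and 48 fell. Over 4-fold there were 10 rises and 8 falls. The median absolute difference of the called genes was 0.54 on the log2 scale, the smallest was 0.30, and the median over all tested genes was 0.001. The 3 wild-type SPOP arrays did not overlap the 3 control vector arrays in any of the 752 called genes, while 3410 genes (27.9%) had arrays that did not overlap. Leaving out wild-type SPOP array 1, 2 or 3 gave 433, 406 and 403 calls, and leaving out control vector array 1, 2 or 3 gave 414, 427 and 551, while 85 to 89 of the calls were over 2-fold in these 6 fits. Of the called genes named here or by the same rule, 55 had further probes, 74 in all, of which 29 were called in the same direction, 39 were not called and 6 had the opposite sign with none called. Of the 149 called genes named by the same rule, 31 lost their call when arrays were scaled to equal medians of all probes. With the number of detected probes as a covariate 54 did, and 14 when a gene's probes were averaged. Some of these calls had been kept in every leave-one-array-out fit. Among them, DDC, H2BC21, DDIT4, NQO1, INSIG2 and TGFBR3 lost theirs with equal medians. CDT1, INSIG2 and SLC4A7 lost theirs with the covariate, and NQO1, ABCG1 and AGR2 with averaged probes.

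**Figure D1:**
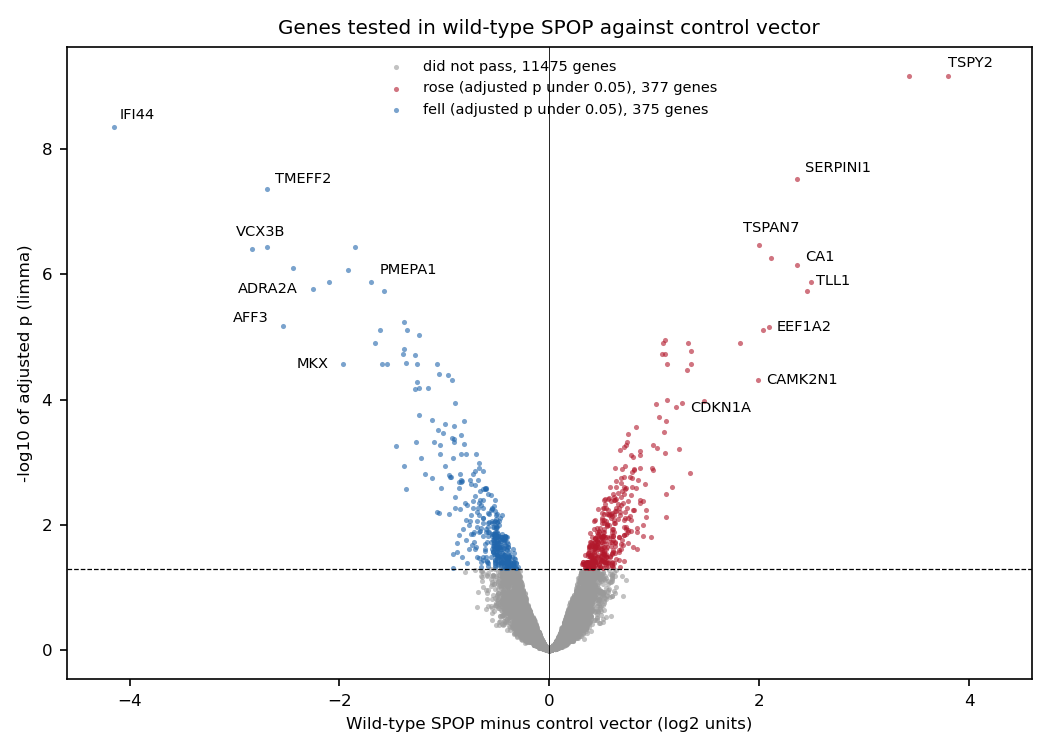
Each point is 1 of the 12227 genes, with the difference (wild-type SPOP minus control vector, log2 units) on the x axis and -log10 of the limma adjusted p on the y axis. The 377 genes that rose are red and the 375 that fell are blue, IFI44 lies alone at the far left and TSPY2 at the far right, and the dashed line marks an adjusted p of 0.05.

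The SPOP transcript did not pass the test. Its level was 10.21, 10.01 and 10.18 on the wild-type SPOP arrays, against 10.23, 10.15 and 10.17 on the control vector arrays, a difference of -0.05 ± 0.10 (SE; adjusted p = 0.841). The ranges overlap. The sources used here do not give where the probe lies relative to the transfected construct, and this level checks neither the induction nor the labels. Of the 13 measured genes of the SPOP and CUL3 ligase list, 0 passed limma's test and 2 had an unadjusted p under 0.05. The paralogue SPOPL differed by -0.44 ± 0.19 (adjusted p = 0.210) and the CUL3 adaptor KLHL12 by 0.31 ± 0.09 (adjusted p = 0.0684). Among 27 transcripts of reported SPOP substrates only NCOA1, which encodes a steroid receptor coactivator, was called, with a rise of 0.44 ± 0.09 (adjusted p = 0.0166, and up to 0.0781 in the 3 of 12 leave-one-array-out fits that lost the call). The list's median was -0.01.

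The largest rises were those of TSPY2, TSPY8 and TSPY4, 3 of 5 measured TSPY genes, which are testis-specific and lie in a repeated array on the Y chromosome. TSPY2 was at 8.88, 9.09 and 8.87 on the wild-type SPOP arrays, against 5.17, 5.05 and 5.22 on the control vector arrays. TSPY8 was at 8.50, 8.53 and 8.40 with wild-type SPOP, against 5.08, 4.93 and 5.12 with control vector. The arrays of the 2 groups lay far apart for both genes, and the control vector arrays were close to the lowest level at which a probe was detected, 4.94 to 4.97. TSPY2 rose by 3.80 ± 0.10 (SE; adjusted p = 6.82e-10) and TSPY8 by 3.43 ± 0.09 (adjusted p = 6.82e-10), while the related probe for TSPY4 rose by 2.49 ± 0.15 (adjusted p = 1.35e-06). TSPY4 was at 7.41, 7.46 and 7.44 with wild-type SPOP, against 5.27, 4.85 and 4.73 with control vector, where 1 of 3 arrays detected it. The probes for TSPY1 and TSPY3 did not pass, at 0.30 ± 0.28 (adjusted p = 0.596) and -0.39 ± 0.23 (adjusted p = 0.357). TSPY copies are near-identical in sequence, and their probes may share transcripts.

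The rise on the Y chromosome was not limited to TSPY. Of 7 measured single-copy Y-linked genes 5 rose and 0 fell, and the list median was 0.86, against 0.001 over all genes. RPS4Y1, which encodes a Y-linked form of a ribosomal protein, was at 10.41, 10.37 and 10.42 with wild-type SPOP, against 9.26, 9.42 and 9.18 with control vector, a rise of 1.12 ± 0.10 (adjusted p = 2.67e-05). EIF1AY, a translation initiation factor, was at 9.04, 9.0 and 9.05 with wild-type SPOP, against 7.80, 7.96 and 8.05 with control vector, a rise of 1.09 ± 0.13 (adjusted p = 0.00033). These are abundant transcripts measured well above background on all 6 arrays, and their groups did not overlap. RPS4Y2 rose by 0.86 ± 0.14 (adjusted p = 0.00398). The deubiquitinase gene USP9Y was at least 1.75-fold higher (adjusted p = 0.0154) and the zinc finger gene ZFY at least 1.30-fold higher (adjusted p = 0.0082), each detected on 3 wild-type SPOP and 0 control vector arrays. The USP9Y call was lost in 3 of 12 leave-one-array-out fits (highest adjusted p 0.0646). A second ZFY probe differed by 0.27 ± 0.19 (adjusted p = 0.523 over all kept probes), while a second EIF1AY probe rose by 0.67 ± 0.16 (adjusted p = 0.045). KDM5D, a histone demethylase gene, differed by 0.15 ± 0.21 (adjusted p = 0.753) and UTY, another, by 0.02 ± 0.16 (adjusted p = 0.961), both near the detection limit.

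Over the whole chromosome, 21 Y-linked genes were tested, 9 rose and 1 fell. The called share was 47.6%, against 4.06% to 9.41% on the other 23 chromosomes. The ninth rise was the noncoding TTTY15, at 0.68 ± 0.16 (adjusted p = 0.0246). VCY was the exception, and was at 6.51, 6.55 and 6.95 with wild-type SPOP, against 7.85, 7.99 and 7.88 with control vector, and fell by 1.24 on the log2 scale (adjusted p = 0.000178). Its probe may also read transcripts of the X-linked relatives described below. The 6 mutant SPOP arrays lay near the wild-type SPOP arrays for TSPY2 and RPS4Y1, while ZFY was lower in the mutants than with wild-type SPOP, by -0.40 on the log2 scale (adjusted p = 0.0412). TSPY2 averaged 9.15 ± 0.08 on mutant arrays (SD, n = 6), 8.95 ± 0.13 on wild-type SPOP arrays and 5.15 ± 0.09 on control vector arrays (SD, n = 3 each). RPS4Y1 averaged 10.48 ± 0.09 on mutant arrays, 10.40 ± 0.03 on wild-type SPOP arrays and 9.29 ± 0.12 on control vector arrays. For both genes the control vector arrays stood apart from the other 9.

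**Figure D2:**
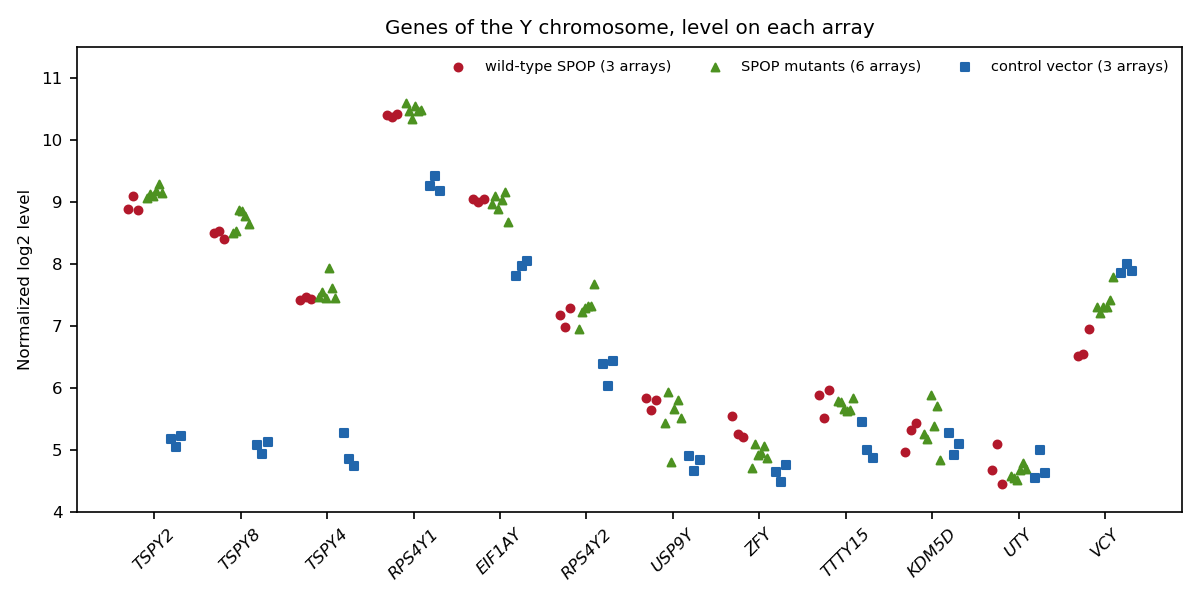
Normalized log2 level of 12 genes of the Y chromosome on each array, with wild-type SPOP (red circles), the SPOP mutants (green triangles) and control vector (blue squares) from left to right for each gene. The control vector arrays are lowest for the TSPY genes, RPS4Y1, EIF1AY and RPS4Y2 and highest for VCY, while KDM5D and UTY overlap.

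VCY belongs to a family of which all 5 measured genes fell. VCX, VCX2, VCX3A and VCX3B are its X-linked relatives, expressed in the male germ line and near-identical to each other. Probes of the family may share transcripts, so these falls may not be separate. VCX3B was at 6.10, 5.68 and 5.93 with wild-type SPOP, against 8.69, 8.83 and 8.67 with control vector, and fell by 2.83 (adjusted p = 3.89e-07). VCX was at 5.87, 5.72 and 6.27 with wild-type SPOP, against 8.67, 8.73 and 8.52 with control vector, and fell by 2.69 (adjusted p = 3.69e-07). VCX3A was at 6.24, 6.24 and 6.14 with wild-type SPOP, against 8.66, 8.74 and 8.54 with control vector, and fell by 2.44 (adjusted p = 7.89e-07). In each of these the highest wild-type SPOP array was over 2 log2 units below the lowest control vector array. VCX2 fell by 1.59 ± 0.14 (adjusted p = 2.67e-05). A second VCX3A probe differed by -0.48 ± 0.22 (adjusted p = 0.308 over all kept probes), and 1 of 4 further VCX2 probes by -0.36 ± 0.22 (adjusted p = 0.462), while the other 3 were called. The gene PUDP between VCX3A and VCX and the genes on either side of the family were not called, with PUDP at -0.24 ± 0.09 (adjusted p = 0.135), TBL1X at -0.34 ± 0.12 (adjusted p = 0.137), NLGN4X at 0.09 ± 0.11 (adjusted p = 0.706) and GPR143 at -0.01 ± 0.14 (adjusted p = 0.978). Farther along the same arm, CD99 and ARSD, chosen after their values were seen, rose. The cell surface gene CD99 rose by 1.07 ± 0.09 (adjusted p = 1.86e-05), and ARSD, between CD99 and VCX3A, by 0.52 ± 0.10 (adjusted p = 0.0117). GYG2, MXRA5 and PRKX, tested in the same stretch, were not called. CD99 lies in the pseudoautosomal region that the X and Y chromosomes share.

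The stretches just before VCX and VCY are shown because the probe for a member on each chromosome fell although most called genes of the Y chromosome rose. They run 5′ to 3′ on the gene's strand, from RefSeq (GRCh38.p14), over chrX:7842921-7843170 (plus strand) and chrY:13986474-13986723 (minus strand). No bases are capitalised, since no motif was searched in them. In a global alignment of 254 columns, 240 (94.5%) were identical.
VCX: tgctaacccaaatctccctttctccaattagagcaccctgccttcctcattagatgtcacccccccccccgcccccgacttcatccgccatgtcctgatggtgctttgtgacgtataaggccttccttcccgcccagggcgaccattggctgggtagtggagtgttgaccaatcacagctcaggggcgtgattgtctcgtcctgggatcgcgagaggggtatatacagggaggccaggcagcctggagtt
VCY: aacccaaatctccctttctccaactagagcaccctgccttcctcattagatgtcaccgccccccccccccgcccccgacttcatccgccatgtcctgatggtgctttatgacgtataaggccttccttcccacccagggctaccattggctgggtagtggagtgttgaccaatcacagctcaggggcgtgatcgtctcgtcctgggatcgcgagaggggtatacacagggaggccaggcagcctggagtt

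Of 36 measured cancer-testis genes of the X and Y chromosomes, 3 rose and 5 fell (22.2% called, against 6.15% of all genes), all of them TSPY, VCX or VCY genes, and the other 28 did not pass. The list's median was 0.01.

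IFI44 had the largest fall of any tested gene. It encodes an interferon-induced cytoplasmic protein. IFI44 was at 5.33, 5.55 and 5.49 on the wild-type SPOP arrays, against 9.72, 9.59 and 9.52 on the control vector arrays. The groups did not overlap, and the difference of -4.15 ± 0.13 (SE; adjusted p = 4.56e-09) is 17.8-fold. It ranged from -4.35 to -2.04 over the alternatives that gave it a value, each of which called it. Other large differences also varied in size over the alternatives, TSPY2 from 1.58 to 3.96 and SERPINI1 from 1.22 to 2.39. Of the 32 measured interferon-stimulated genes, IFI44 included, 3 fell and 0 rose (9.38% called, against 6.15% of all genes), and the list's median was 0.05. IFI6, a mitochondrial survival protein, fell by 0.46 (adjusted p = 0.036) and IFIT3, an antiviral protein, by 0.40 (adjusted p = 0.0394). Both calls were close to the threshold, and were lost in 8 and 7 of 12 leave-one-array-out fits (highest adjusted p 0.112 and 0.143). With all arrays, IFI6 lost its call in 3 of 14 alternatives. IFIT3 lost its call in 9 of 13, the authors' deposited values among them. The IFIT3 probe was close to the detection limit, and was detected on 1 wild-type SPOP array and 3 control vector arrays. IFI44L, the paralogue next to IFI44, was at 5.32, 5.94 and 5.55 with wild-type SPOP, against 6.20, 5.84 and 5.50 with control vector. These ranges overlap, and the difference was -0.25 ± 0.19 (adjusted p = 0.519). IFIT1 differed by 0.08 ± 0.20 (adjusted p = 0.874) and IFIT2 by 0.07 ± 0.20 (adjusted p = 0.897).

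The sequences before IFI44, IFI44L, IFI6 and IFIT1 are shown because they set the gene that fell 17.8-fold beside 1 that fell by 0.46 and 2 that did not pass. Each is the 250 bases before the RefSeq start (GRCh38.p14), 5′ to 3′ on the gene's strand. Capitals mark the core of the interferon-stimulated response element, GAAA repeated after any 2 bases, on either strand. The stretches are chr1:78649539-78649788 (plus) for IFI44, chr1:78620198-78620447 (plus) for IFI44L, chr1:27672193-27672442 (minus) for IFI6 and chr10:89392373-89392622 (plus) for IFIT1.
IFI44: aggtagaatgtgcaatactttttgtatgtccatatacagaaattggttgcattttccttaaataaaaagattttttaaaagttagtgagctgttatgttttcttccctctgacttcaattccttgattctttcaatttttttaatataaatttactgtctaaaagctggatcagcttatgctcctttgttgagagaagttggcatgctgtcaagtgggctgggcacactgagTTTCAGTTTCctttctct
IFI44L: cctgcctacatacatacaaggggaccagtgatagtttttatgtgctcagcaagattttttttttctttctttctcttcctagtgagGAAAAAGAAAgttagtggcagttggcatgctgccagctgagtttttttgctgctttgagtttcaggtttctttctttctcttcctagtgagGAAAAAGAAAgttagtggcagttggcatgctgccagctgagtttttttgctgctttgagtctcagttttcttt
IFI6: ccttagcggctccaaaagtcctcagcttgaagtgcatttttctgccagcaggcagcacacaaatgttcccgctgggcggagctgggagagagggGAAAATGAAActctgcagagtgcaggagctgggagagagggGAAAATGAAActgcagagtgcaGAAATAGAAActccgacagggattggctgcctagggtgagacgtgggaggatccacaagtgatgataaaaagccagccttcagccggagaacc
IFIT1: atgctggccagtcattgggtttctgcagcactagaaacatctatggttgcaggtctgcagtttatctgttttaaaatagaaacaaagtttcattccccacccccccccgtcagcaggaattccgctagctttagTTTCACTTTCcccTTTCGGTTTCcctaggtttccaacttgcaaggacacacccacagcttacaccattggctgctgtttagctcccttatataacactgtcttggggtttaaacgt

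All 4 stretches hold the motif, IFI44 and IFI44L included, with 1 match in IFI44, 2 in IFI44L, 3 in IFI6 and 2 in IFIT1. It occurs in 3.07% of all 27305 promoters of this length and in 2.42% of the 9784 that belong to tested genes. Of the 27 interferon list genes with a promoter entry, 16 held it. They comprise the 3 that fell and 13 of the 24 that did not pass.

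Genes near IFI44 on chromosome 1 were examined after its value was seen. PTGFR, the prostaglandin F receptor gene, was detected on 0 wild-type SPOP and 3 control vector arrays and was at least 2.06-fold lower (adjusted p = 5.7e-06). DNAJB4, a heat shock co-chaperone gene, fell by 0.67 (adjusted p = 0.0129), FUBP1, a regulator of MYC transcription, by 0.41 (adjusted p = 0.0388) and PRKACB, a catalytic subunit of protein kinase A, by 0.81 (adjusted p = 0.000506). TTLL7 differed by -0.03 ± 0.14 (adjusted p = 0.935). FUBP1, DNAJB4 and PTGFR are consecutive tested genes, IFI44L lies between PTGFR and IFI44, and TTLL7 between IFI44 and PRKACB.

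A cluster of TRIM genes on chromosome 11 fell. TRIM49, TRIM49C, TRIM49D1 and TRIM49D2 are near-identical copies of a testis-expressed RING finger gene. TRIM49 was at 4.50, 4.52 and 4.54 with wild-type SPOP, where no array detected it, against 6.28, 6.46 and 6.36 with control vector, and was at least 2.60-fold lower (adjusted p = 3.69e-07). TRIM49C was at 5.46, 5.59 and 5.99 with wild-type SPOP, against 7.31, 7.41 and 7.31 with control vector, and fell by 1.66 (adjusted p = 1.27e-05). A second TRIM49C probe differed by -0.31 ± 0.13 (adjusted p = 0.267 over all kept probes). TRIM49D2 was at least 1.77-fold lower (adjusted p = 0.000208) and TRIM49D1 fell by 0.92 (adjusted p = 0.0294). The next 2 tested genes, chosen after their values were seen, the peptidase gene NAALAD2 and the HSP90 partner CHORDC1, fell by 0.88 (adjusted p = 0.0271) and 0.61 (adjusted p = 0.0202). The genes flanking this run, FOLH1B at -0.20 ± 0.17 (adjusted p = 0.544) and SLC36A4 at -0.31 ± 0.13 (adjusted p = 0.216), were not called. Elsewhere on chromosome 11 the relatives TRIM51 and TRIM48 fell as well. TRIM51 was at 6.99, 6.71 and 6.60 with wild-type SPOP, against 8.90, 8.84 and 8.84 with control vector, and fell by 2.10 (adjusted p = 1.35e-06), and TRIM48 fell by 1.37 (adjusted p = 0.00263). The pseudogene GRM5P1, near TRIM48 among the tested genes and chosen after its value was seen, fell by 1.22 (adjusted p = 0.000849). OR4C12 and SEPTIN7P11, between GRM5P1 and TRIM48, were not called, at -0.08 ± 0.20 (adjusted p = 0.879) and -0.31 ± 0.09 (adjusted p = 0.0557). The TRIM49 copies are similar in sequence, and the probes may not tell them apart.

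**Figure D3:**
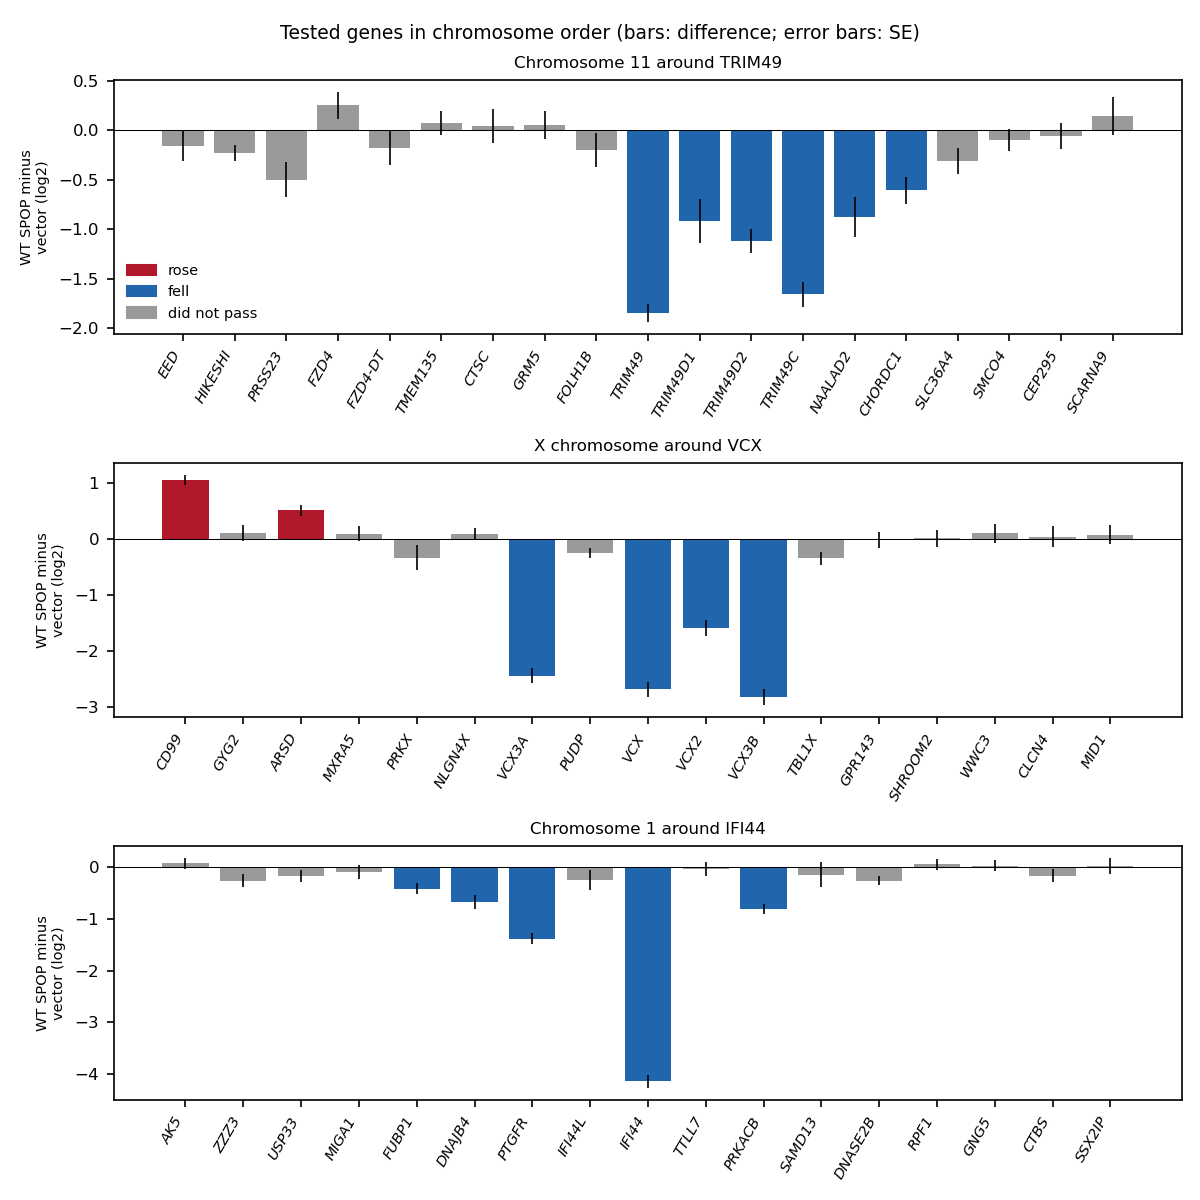
Bars give the difference (wild-type SPOP minus control vector, log2 units, with the SE) for consecutive tested genes around TRIM49, VCX and IFI44 in chromosome order, red for genes that rose, blue for genes that fell and grey for those that did not pass. A run of 6 neighbouring genes fell around TRIM49, the 4 VCX genes lie beside uncalled genes with PUDP between them, and IFI44 stands beside the uncalled IFI44L.

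Several secreted and membrane proteins were among the largest rises. SERPINI1, which encodes the protease inhibitor neuroserpin and is repressed by androgen, was at 8.93, 8.85 and 8.87 with wild-type SPOP, against 6.53, 6.49 and 6.55 with control vector, a rise of 2.36 ± 0.09 (adjusted p = 2.99e-08). A second SERPINI1 probe rose by 2.31 ± 0.14. GOLIM4, a Golgi protein gene and the next tested gene after SERPINI1 on chromosome 3, rose by 1.12 ± 0.11 (adjusted p = 0.0001). PDCD10, the tested gene on the other side of SERPINI1, differed by 0.14 ± 0.10 (adjusted p = 0.486). TLL1, a secreted metalloprotease that cleaves the BMP antagonist chordin, was at 7.06, 7.11 and 6.85 with wild-type SPOP, against 4.56, 4.63 and 4.46 with control vector. It was detected on 0 control vector arrays, as were CA1 and PLXDC2, and was at least 4.14-fold higher (adjusted p = 1.85e-06). CA1, a carbonic anhydrase best known from red cells, was at 6.93, 6.71 and 7.05 with wild-type SPOP, against 4.45, 4.55 and 4.62 with control vector, and was at least 3.84-fold higher (adjusted p = 7.06e-07). The transmembrane gene PLXDC2 was at 6.66, 7.02 and 6.96 with wild-type SPOP, against 4.88, 4.68 and 4.74 with control vector, and was at least 3.79-fold higher (adjusted p = 5.58e-07). A second PLXDC2 probe differed by 0.25 ± 0.19 (adjusted p = 0.564 over all kept probes). For these 3 genes every wild-type SPOP array detected the probe and the true fold is unknown beyond its bound.

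EEF1A2, a translation elongation factor usually confined to muscle and nerve, was at 7.59, 7.53 and 7.05 with wild-type SPOP, against 5.37, 5.17 and 5.35 with control vector, a rise of 2.09 ± 0.15 (adjusted p = 6.84e-06). GASK1B, a Golgi protein gene, was at 7.66, 7.84 and 7.55 with wild-type SPOP, against 5.67, 5.77 and 5.48 with control vector, a rise of 2.04 ± 0.15 (adjusted p = 7.74e-06). TSPAN7, a tetraspanin of the cell surface, was at 8.03, 8.07 and 8.11 with wild-type SPOP, against 5.93, 6.11 and 6.15 with control vector, a rise of 2.00 ± 0.10 (adjusted p = 3.38e-07). The groups stayed apart on every array. Next in size came CAMK2N1, an inhibitor of calmodulin-dependent kinase II (1.99 ± 0.18), and SDCBP2, a PDZ adaptor (1.82 ± 0.14), followed by the calcium-binding protein gene S100P (1.47 ± 0.15). WNT5A, a ligand of non-canonical WNT signalling, rose by 1.35 ± 0.12, the cholesterol sulfotransferase gene SULT2B1 by 1.35 ± 0.11, the matrix gene MATN2 by 1.34 ± 0.19 and the sterol reductase gene TM7SF2 by 1.32 ± 0.10. A SULT2B1 probe of lower signal differed by -0.18 ± 0.15 (adjusted p = 0.608 over all kept probes). DIO1, which activates thyroid hormone, rose by 1.31 ± 0.12, and ALDH2, which oxidises acetaldehyde, by 1.24 ± 0.15. The metalloprotease inhibitor gene TIMP2 rose by 1.21 ± 0.12, the complement regulator gene SUSD4 by 1.17 ± 0.18 and the receptor phosphatase gene PTPRK by 1.11 ± 0.17. None of the 25 largest rises lost its call under any alternative that gave it a value.

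**Figure D4:**
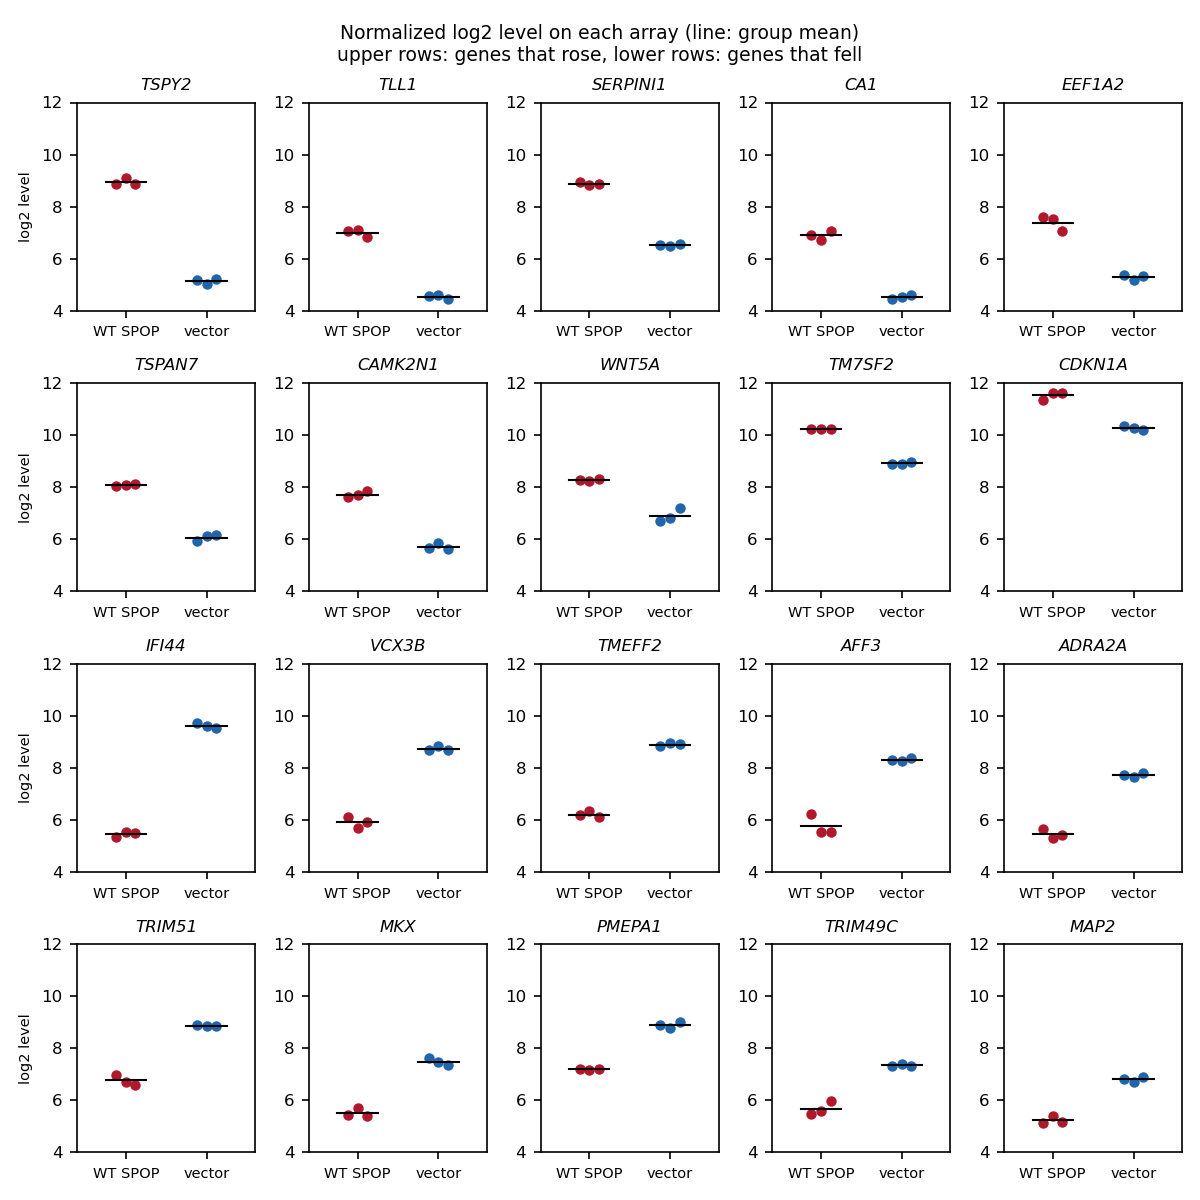
Normalized log2 level on each of the 3 wild-type SPOP arrays (red, left) and 3 control vector arrays (blue, right) for 10 genes that rose and 10 that fell, with the group mean as a line. In every panel the arrays of the 2 groups are separate, and for TLL1 and CA1 the control vector arrays lie at the detection limit.

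Large falls were also seen outside these families. TMEFF2, a transmembrane protein gene expressed in prostate and brain, was at 6.17, 6.32 and 6.12 with wild-type SPOP, against 8.84, 8.93 and 8.90 with control vector, and fell by 2.69 (adjusted p = 4.43e-08). AFF3, a nuclear regulator of transcription elongation, was at 6.21, 5.54 and 5.52 with wild-type SPOP, against 8.28, 8.26 and 8.37 with control vector, and fell by 2.54 (adjusted p = 6.69e-06). ADRA2A, an adrenergic receptor gene, was at 5.66, 5.30 and 5.42 with wild-type SPOP, against 7.71, 7.65 and 7.79 with control vector, and fell by 2.25 (adjusted p = 1.69e-06). The homeobox gene MKX was at 5.44, 5.71 and 5.39 with wild-type SPOP, against 7.61, 7.46 and 7.35 with control vector, and fell by 1.97 (adjusted p = 2.67e-05). The first wild-type SPOP array was the highest of its group for AFF3, and still lay over 2 log2 units below the control vector arrays. PMEPA1, an androgen- and TGF-beta-induced gene that dampens SMAD signalling, fell by 1.70, the phospholipase gene PLA1A fell by 1.61 and the microtubule protein gene MAP2 by 1.58. MAP2 had 4 probes, of which a second fell by 1.98 and another of opposite sign differed by 0.09 ± 0.19. TARP, a T-cell receptor gamma transcript made in prostate cells, fell by 1.55, FJX1 fell by 1.38, the surface protein gene TM4SF1 fell by 1.38 and AADAT, of tryptophan breakdown, fell by 1.36. BMPR1B, a BMP receptor gene, was at least 2.51-fold lower and the receptor phosphatase gene PTPRM at least 2.18-fold lower, each detected on 0 wild-type SPOP and 3 control vector arrays.

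Receptors and their signalling partners changed in both directions. Of 21 measured G protein-coupled receptor and RGS genes 2 rose and 5 fell (33.3% called, against 6.15% of all genes). OR51E1, an olfactory receptor expressed in prostate, rose by 1.08 ± 0.08 (adjusted p = 1.27e-05) and the opioid receptor gene OPRK1 by 1.11 ± 0.20 (adjusted p = 0.00746). Besides ADRA2A and PTGFR, the prostaglandin receptor gene PTGER4 fell by 1.37 (adjusted p = 2.63e-05) and RGS2, which switches off G protein signals, by 0.52 (adjusted p = 0.00399). Of 26 growth factor receptors, ligands and feedback genes of the MAP kinase pathway 2 rose and 3 fell (19.2% called). The feedback inhibitors SPRY1 and SPRY2 fell by 0.57 (adjusted p = 0.00663) and 0.53 (adjusted p = 0.0159), and PHLDA1 by 0.51 (adjusted p = 0.0159). The receptor gene ERBB2 rose by 0.46 ± 0.10 (adjusted p = 0.0166) and the EGF receptor ligand HBEGF by 0.54 ± 0.12 (adjusted p = 0.0242). All of these but SPRY1 lost their call in 2 to 6 of 12 leave-one-array-out fits, with highest adjusted p 0.0925.

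On the TGF-beta and BMP list, 3 of 26 genes rose and 3 fell (23.1% called, against 6.15% of all genes). Besides TLL1, TMEFF2, PMEPA1 and BMPR1B, the co-receptor gene TGFBR3 rose by 0.56 ± 0.10 (adjusted p = 0.00578) and the BMP target ID1 by 0.37 ± 0.10 (adjusted p = 0.0415, and up to 0.144 in the 8 of 12 leave-one-array-out fits that lost it). Of 18 WNT genes WNT5A rose, WNT10B fell by 0.52 (adjusted p = 0.0149) and 16 did not pass (11.1% called). Of 14 Notch genes the receptor gene NOTCH3 rose by 0.40 ± 0.10 (adjusted p = 0.0388) and the ligand gene JAG2 fell by 0.51 (adjusted p = 0.0194), which is 14.3% called. The calls of WNT10B, NOTCH3 and JAG2 were lost in 3, 6 and 4 of 12 leave-one-array-out fits (highest adjusted p 0.059, 0.138 and 0.0818). Carbonic anhydrase and bicarbonate transport genes changed in 4 of 11 (36.4%). The anhydrases CA1 and CA2 were higher, CA2 by at least 1.15-fold with 2 wild-type SPOP and 0 control vector arrays detecting it (adjusted p = 0.00254). The transporters SLC26A3 and SLC4A7 fell by 0.79 (adjusted p = 0.000734) and 0.57 (adjusted p = 0.00888). Among 18 tetraspanins and TM4 proteins TSPAN7 rose, TSPAN9 rose by 0.41 ± 0.09 (adjusted p = 0.0157), and TM4SF1 and TM4SF18 fell, TM4SF18 by 0.91 (adjusted p = 0.000483), which is 22.2% called. The TSPAN9 call was lost in 4 of 12 leave-one-array-out fits (highest adjusted p 0.0651).

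Androgen target genes, which respond to the androgen receptor, changed unevenly. Of 30 measured androgen-induced genes 9 fell (30.0%, against 3.07% of all genes) and 3 rose (10.0%, against 3.08%), and the list median was -0.13. SPOCK1, a proteoglycan gene, was at 6.30, 6.20 and 6.43 with wild-type SPOP, against 7.06, 7.10 and 6.95 with control vector, and fell by 0.73 (adjusted p = 0.00152). FKBP5, a co-chaperone of steroid receptors, was at 9.94, 9.87 and 9.89 with wild-type SPOP, against 10.52, 10.48 and 10.50 with control vector, and fell by 0.60 (adjusted p = 0.00258). The groups of both genes were tight and separate. ALDH1A3, a retinaldehyde dehydrogenase gene of luminal prostate cells, rose by 0.80 ± 0.10 (adjusted p = 0.000829). KLK3, which encodes prostate-specific antigen, was at 5.20, 5.49 and 5.35 with wild-type SPOP, against 4.68, 4.85 and 5.02 with control vector, close to the detection limit, and rose by 0.49 ± 0.12 (adjusted p = 0.0314). TMPRSS2, a membrane serine protease gene, was at 11.45, 11.44 and 11.42 with wild-type SPOP, against 11.01, 11.12 and 10.89 with control vector, and rose by 0.43 ± 0.10 (adjusted p = 0.0271). The KLK3 and TMPRSS2 calls were lost in 4 and 5 of 12 leave-one-array-out fits (highest adjusted p 0.118 and 0.086). KLK3 also lost it in 7 of 13 alternatives with all arrays, the authors' deposited values among them, and TMPRSS2 in 3 of 14. Of 15 androgen-repressed genes 4 rose and 1 fell (33.3% called, against 6.15% of all genes), and the list median was 0.26. Besides SERPINI1, CAMK2N1 and OPRK1, the dopa decarboxylase gene DDC rose by 0.58 ± 0.09 (adjusted p = 0.00247), while the peptidase gene DPP4 fell by 0.94 (adjusted p = 0.0017). In steroid metabolism 1 of 14 genes was called, AKR1C2, which inactivates dihydrotestosterone, and fell by 0.97 (adjusted p = 4.06e-05). NR3C2, the mineralocorticoid receptor gene, fell by 0.77 (adjusted p = 0.00986) and was the only one called of 15 coregulator and receptor genes, a call lost with the number of detected probes as a covariate. A second NR3C2 probe differed by -0.57 ± 0.14 (adjusted p = 0.0521 over all kept probes).

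Cell identity genes changed in a few places. Of 19 luminal epithelial genes KRT8 rose and CD24 and AGR2 fell (15.8% called). CD24, a surface glycoprotein gene, was at 5.82, 5.79 and 5.73 with wild-type SPOP, against 6.68, 6.63 and 6.73 with control vector, and fell by 0.90 (adjusted p = 0.000115). The keratin gene KRT8 rose by 0.48 ± 0.12 (adjusted p = 0.035), a call lost in 7 of 12 leave-one-array-out fits (highest adjusted p 0.126), and AGR2, a secretory pathway disulfide isomerase gene, fell by 0.65 (adjusted p = 0.0113), with another probe at 0.19 ± 0.19 (adjusted p = 0.695). Vimentin, VIM, a mesenchymal filament, was at 7.93, 7.85 and 7.65 with wild-type SPOP, against 9.06, 8.97 and 9.24 with control vector. It fell by 1.28 (adjusted p = 1.96e-05), and by 2.43 at a second probe. On the neuronal and neuroendocrine list ENO2, an enolase of neurons, rose by 0.68 ± 0.10 (adjusted p = 0.00179), while MAP2 and the Notch ligand DLL3 fell, DLL3 by 0.51 (adjusted p = 0.00703), and the other 6 of 9 genes did not pass.

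Some DNA replication genes fell. The G1/S and replication list holds genes that E2F factors switch on before S phase. Of 45 measured, 12 fell (26.7%, against 3.07% of all genes) and 0 rose, 40 had a negative difference, and the median was -0.31. The list's median level was 8.97, 9.02 and 9.07 on the wild-type SPOP arrays, against 9.47, 9.40 and 9.34 on the control vector arrays. Those values did not overlap. Leaving out wild-type SPOP array 1, 2 or 3 gave 6, 5 and 5 that fell, leaving out control vector array 1, 2 or 3 gave 5, 6 and 8, and the fit gave 3 with the number of detected probes as a covariate, and in each of these fits 0 rose. MCM10, a factor in activation of the replicative helicase, was at 9.27, 9.20 and 9.13 with wild-type SPOP, against 9.69, 9.84 and 9.64 with control vector, and fell by 0.52 (adjusted p = 0.00608). E2F2, an activating E2F factor, was at 7.67, 7.83 and 7.78 with wild-type SPOP, against 8.35, 8.25 and 8.24 with control vector, and fell by 0.52 (adjusted p = 0.00871). CDT1, the licensing factor, fell by 0.82 (adjusted p = 0.0114), and its control vector arrays ranged from 7.98 to 8.68, more widely than the 7.50 to 7.54 on wild-type SPOP arrays. The helicase subunit genes MCM4 and MCM7 fell by 0.50 (adjusted p = 0.00884) and 0.49 (adjusted p = 0.0149), and UHRF1, which guides maintenance of DNA methylation, by 0.45 (adjusted p = 0.0137). The MCM7 and UHRF1 calls were lost in 4 and 3 of 12 leave-one-array-out fits (highest adjusted p 0.0623 and 0.061). Second probes of MCM4, MCM7 and UHRF1 were not called, at -0.20 ± 0.12, -0.47 ± 0.12 and -0.17 ± 0.16 (lowest adjusted p 0.055 over all kept probes). A second MCM10 probe was called, at -0.50 ± 0.10 (adjusted p = 0.0167 over all kept probes). The 32 mitotic genes (G2/M) had 0 calls with limma, 1 unadjusted p under 0.05 and a median of -0.02. Their lowest adjusted p-values belonged to CDK1 (-0.30 ± 0.10; adjusted p = 0.12), KIF23 (0.24 ± 0.12; adjusted p = 0.295) and BIRC5 (-0.18 ± 0.09; adjusted p = 0.3).

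Promoters of E2F2, MCM7 and MCM6 are shown because they are the called replication genes whose 250 bases before the start hold an E2F site as searched here. MCM6, chosen after its value was seen, fell by 0.35 (adjusted p = 0.0425). Capitals mark TTTGGCGC or TTTCGCGC on either strand, where matches may overlap. The stretches, all on the minus strand of GRCh38.p14 and printed 5′ to 3′ on the gene's strand, are chr1:23531234-23531483 for E2F2, chr7:100101398-100101647 for MCM7 and chr2:135876444-135876693 for MCM6.
E2F2: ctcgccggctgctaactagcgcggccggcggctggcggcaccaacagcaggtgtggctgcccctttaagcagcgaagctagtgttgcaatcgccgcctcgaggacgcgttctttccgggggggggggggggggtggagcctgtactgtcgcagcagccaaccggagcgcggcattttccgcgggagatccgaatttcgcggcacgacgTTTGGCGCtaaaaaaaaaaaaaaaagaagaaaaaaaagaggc
MCM7: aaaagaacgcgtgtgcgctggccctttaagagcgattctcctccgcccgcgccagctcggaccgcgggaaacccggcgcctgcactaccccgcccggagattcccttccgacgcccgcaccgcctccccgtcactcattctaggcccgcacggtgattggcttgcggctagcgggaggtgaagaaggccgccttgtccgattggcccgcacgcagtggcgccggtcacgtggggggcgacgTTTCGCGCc
MCM6: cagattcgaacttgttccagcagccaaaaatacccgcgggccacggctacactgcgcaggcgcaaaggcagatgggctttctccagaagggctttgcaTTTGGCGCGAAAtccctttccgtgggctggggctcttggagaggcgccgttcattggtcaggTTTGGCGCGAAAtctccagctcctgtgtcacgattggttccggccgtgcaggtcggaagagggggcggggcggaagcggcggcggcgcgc

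At least 1 of these motifs stood in 0.996% of all promoters of this length and in 1.79% of those of tested genes. Among the 40 replication genes with a promoter entry it stood in 7, which comprise 3 of the 11 called and 4 of the 29 that did not pass (E2F1, POLA1, POLA2 and POLE).

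Other genes of the dividing cell moved with smaller differences. Of 28 break repair genes 3 fell (10.7%, against 3.07% of all genes) and 0 rose, 24 had a negative difference and the median was -0.20. NBN, a subunit of the MRE11 complex, fell by 0.40 (adjusted p = 0.0157), the checkpoint kinase gene CHEK1 by 0.44 (adjusted p = 0.0166) and the exonuclease gene EXO1 by 0.35 (adjusted p = 0.0448), and each lost its call in 3, 4 and 11 of 12 leave-one-array-out fits (highest adjusted p 0.154). Of 28 measured replication-dependent histone genes, 5 rose (17.9%, against 3.08% of all genes) and 0 fell, and the list median was 0.26. H2BC21 was at 10.83, 10.80 and 10.66 with wild-type SPOP, against 10.34, 10.28 and 10.32 with control vector, and rose by 0.45 ± 0.09 (adjusted p = 0.011). H2BC5 and H2AC6 rose by 0.37 ± 0.09 (adjusted p = 0.0294) and 0.37 ± 0.09 (adjusted p = 0.031), H2AC11 by 0.62 ± 0.16 (adjusted p = 0.0405) and H2AC18 by 0.35 ± 0.09 (adjusted p = 0.0451). These 4 calls were lost in 5 to 12 of 12 leave-one-array-out fits (highest adjusted p 0.156). A second H2AC18 probe differed by 0 ± 0.09 (adjusted p = 0.999 over all kept probes). Another H2BC5 probe differed by -0.04 ± 0.12, and a further one rose by 0.65 ± 0.12 (adjusted p = 0.0126 over all kept probes). The count of histone genes that rose was 1 or 2 without any 1 of the 6 arrays. Histone gene copies are similar in sequence, so probes may share transcripts.

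CDKN1A, which encodes the cyclin-dependent kinase inhibitor p21, was at 11.36, 11.63 and 11.61 with wild-type SPOP, against 10.36, 10.29 and 10.19 with control vector. The groups were about 1 log2 unit apart on every array, and the rise was 1.26 ± 0.13 (adjusted p = 0.000115). A second CDKN1A probe rose by 0.52 ± 0.12 (adjusted p = 0.045 over all kept probes). No other of the 9 measured genes on the list of kinase inhibitors and pocket proteins was called. Of 28 p53 targets 5 rose (17.9%, against 3.08% of all genes) and 0 fell, and the list median was 0.05. GDF15, a secreted stress cytokine, rose by 0.80 ± 0.14 (adjusted p = 0.00579), TP53INP1, an autophagy and apoptosis factor, by 0.74 ± 0.09 (adjusted p = 0.000483) and SESN1, a stress-induced inhibitor of mTORC1, by 0.60 ± 0.14 (adjusted p = 0.0278). TIGAR, a fructose bisphosphatase gene, rose by 0.47 ± 0.10 (adjusted p = 0.0149). SESN1 and TIGAR lost their call in 6 and 3 of 12 leave-one-array-out fits (highest adjusted p 0.0964 and 0.0646). Of 26 apoptosis regulators the initiator caspase gene CASP9 rose by 0.73 ± 0.15 (adjusted p = 0.014) and the survival gene BCL2L1 by 0.42 ± 0.10 (adjusted p = 0.0363). CASP9 lost its call in 1 and BCL2L1 in 7 of those fits (highest adjusted p 0.0599 and 0.131). A second CASP9 probe differed by 0.16 ± 0.20 (adjusted p = 0.76 over all kept probes), while a second BCL2L1 probe rose by 0.54 ± 0.13 (adjusted p = 0.0394).

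Part of the measured ER chaperone genes fell. Of 24 measured ER chaperone and unfolded protein response genes 7 fell (29.2%, against 3.07% of all genes) and 0 rose, 21 had a negative difference, and the median was -0.25. The number that fell became 3, 4 and 4 when wild-type SPOP array 1, 2 or 3 was left out, 3, 2 and 4 when control vector array 1, 2 or 3 was, and 1 with the number of detected probes as a covariate. MANF, an ER-resident survival factor, was at 12.19, 12.15 and 12.18 with wild-type SPOP, against 12.89, 12.67 and 12.61 with control vector, and fell by 0.55 (adjusted p = 0.00555). HSP90B1, the ER form of the chaperone HSP90, was at 12.65, 12.90 and 12.81 with wild-type SPOP, against 13.39, 13.31 and 13.22 with control vector, and fell by 0.52 (adjusted p = 0.0157). HYOU1, a nucleotide exchange factor of the ER chaperone BiP, was at 8.18, 7.86 and 8.01 with wild-type SPOP, against 8.50, 8.64 and 8.52 with control vector, and fell by 0.54 (adjusted p = 0.0272). None of the 3 genes had overlapping groups. CRELD2 fell by 0.52 (adjusted p = 0.0129), DNAJC3, a co-chaperone that restrains PERK, by 0.54 (adjusted p = 0.0176) and SDF2L1 by 0.39 (adjusted p = 0.0365). Of those named, MANF kept its call in all 12 leave-one-array-out fits, and the others lost it in 1 to 7 of them, with highest adjusted p 0.132.

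The ER stress response element, CCAAT and CCACG with any 9 bases between, and a second form, ATTGG and CCACG with any 1 base between, are bound by ATF6 and XBP1. Capitals mark either form on either strand in the 250 bases before the start of 4 genes that fell, shown because they are the called members of the list that hold one. The stretches (GRCh38.p14, 5′ to 3′ on the gene's strand) are chr12:103930160-103930409 (plus) for HSP90B1, chr22:49918384-49918633 (plus) for CRELD2, chr11:119057206-119057455 (minus) for HYOU1 and chr22:21642052-21642301 (plus) for SDF2L1.
HSP90B1: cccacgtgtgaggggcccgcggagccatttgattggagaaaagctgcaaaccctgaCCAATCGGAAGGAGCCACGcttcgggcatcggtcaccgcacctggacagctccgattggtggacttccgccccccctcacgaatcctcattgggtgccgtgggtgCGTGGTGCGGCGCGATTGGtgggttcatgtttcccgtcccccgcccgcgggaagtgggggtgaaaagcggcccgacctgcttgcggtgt
CRELD2: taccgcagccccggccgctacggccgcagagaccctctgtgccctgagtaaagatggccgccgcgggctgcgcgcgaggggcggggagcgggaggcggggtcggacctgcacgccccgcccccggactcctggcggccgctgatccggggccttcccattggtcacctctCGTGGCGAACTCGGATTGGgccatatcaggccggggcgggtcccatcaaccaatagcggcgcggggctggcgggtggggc
HYOU1: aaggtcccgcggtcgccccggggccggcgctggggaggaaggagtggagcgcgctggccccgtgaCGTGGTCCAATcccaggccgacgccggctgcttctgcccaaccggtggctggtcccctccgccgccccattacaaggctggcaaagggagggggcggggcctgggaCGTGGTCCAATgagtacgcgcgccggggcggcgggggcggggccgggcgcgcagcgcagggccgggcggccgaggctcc
SDF2L1: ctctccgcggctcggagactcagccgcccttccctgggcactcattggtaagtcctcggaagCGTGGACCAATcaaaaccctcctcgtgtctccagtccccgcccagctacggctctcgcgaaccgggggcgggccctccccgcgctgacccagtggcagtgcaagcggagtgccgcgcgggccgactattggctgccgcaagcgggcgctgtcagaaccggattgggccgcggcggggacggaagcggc

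HSP90B1 and HYOU1 have 2 matches each, CRELD2 and SDF2L1 1 each. Of all 27305 promoters 0.132% held a match, and of those of tested genes 0.235%. In the list it was held by 4 of the 7 genes that fell and by 4 of the 16 that did not pass (HSPA5, CALR, CANX and XBP1), among genes with a promoter entry.

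Amino acid supply and glycolysis genes were lower in part. Of 30 ATF4 target and amino acid genes 4 fell and 1 rose (16.7% called, against 6.15% of all genes), 26 had a negative difference and the median was -0.26. SLC7A5, the large neutral amino acid transporter gene, was at 10.47, 10.54 and 10.49 with wild-type SPOP, against 11.23, 11.28 and 11.09 with control vector, and fell by 0.70 (adjusted p = 0.000745). The secreted glycoprotein gene STC2 fell by 0.45 (adjusted p = 0.00703), the serine hydroxymethyltransferase gene SHMT2 by 0.39 (adjusted p = 0.0221) and the asparagine synthetase gene ASNS by 0.35 (adjusted p = 0.0452). DDIT4, an mTORC1 inhibitor, rose by 0.62 ± 0.10 (adjusted p = 0.00361). Of 31 hypoxia and glycolysis genes 5 fell and 1 rose (19.4% called), and the list median was -0.11. The glycolytic enzyme genes PFKFB3, PFKP and HK2 fell by 0.76 (adjusted p = 0.00191), 0.43 (adjusted p = 0.036) and 0.46 (adjusted p = 0.0388), and the glucose transporter gene SLC2A1 by 0.49 (adjusted p = 0.0248). A second PFKFB3 probe differed by -0.03 ± 0.15 (adjusted p = 0.95 over all kept probes). LOX, which cross-links collagen, was detected on 0 wild-type SPOP and 3 control vector arrays and was at least 1.58-fold lower (adjusted p = 0.00114), while INSIG2, a brake on sterol synthesis, rose by 0.52 ± 0.10 (adjusted p = 0.00837). Without 1 array SHMT2, SLC2A1 and PFKP lost their call in 4 of 12 fits, HK2 in 8 and ASNS in 11, with highest adjusted p 0.156.

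Ribosome production genes fell in 3 of 24 measured (12.5%, against 3.07% of all genes), and the list median was -0.18. MYC, the transcription factor that drives them, fell by 0.43 (adjusted p = 0.0322), the nucleolar gene NOP16 by 0.33 (adjusted p = 0.0346) and the ribosomal RNA methyltransferase gene FBL by 0.34 (adjusted p = 0.0435), and these calls were lost in 5, 5 and 12 of 12 leave-one-array-out fits (highest adjusted p 0.151). Structural genes of the ribosome (27 measured, median -0.01), the proteasome (27, median 0) and the respiratory chain (30, median 0.08) had 0 calls with limma, and 2, 0 and 7 of them had an unadjusted p under 0.05. Their extreme differences were -0.26 and 0.14 for ribosomal proteins, -0.22 and 0.17 for proteasome subunits and -0.30 and 0.32 for respiratory chain subunits.

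**Figure D5:**
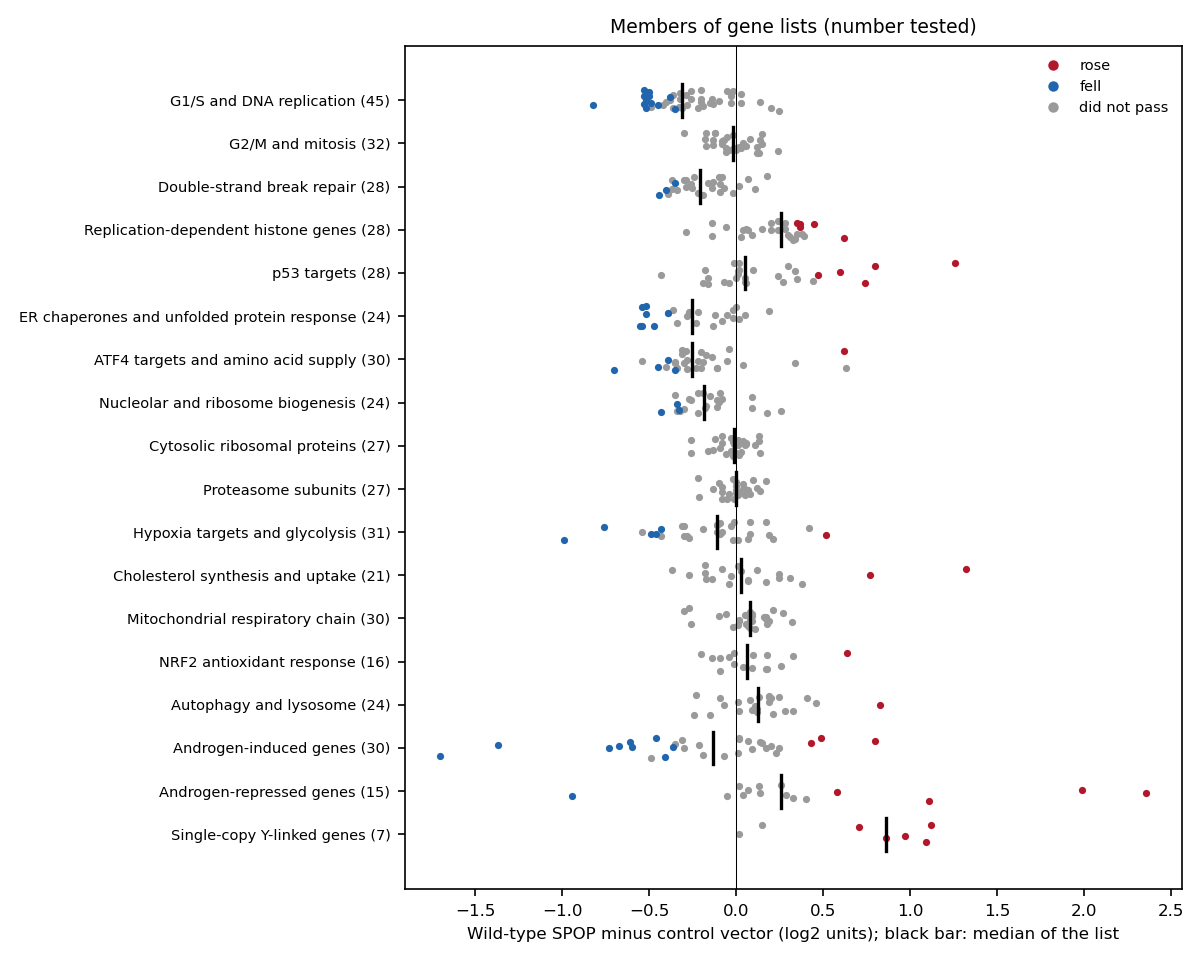
Each point is a measured member of a gene list, with its difference (wild-type SPOP minus control vector, log2 units) on the x axis, red where it rose, blue where it fell and grey where it did not pass. The black bar is the median of the list, which lies at -0.31 for G1/S and DNA replication, at -0.02 for G2/M and mitosis and at 0.86 for single-copy Y-linked genes.

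In lipid metabolism the calls were single genes. AMACR, a peroxisomal racemase and prostate cancer marker, was at 11.64, 11.65 and 11.70 with wild-type SPOP, against 10.56, 10.61 and 10.50 with control vector. It rose by 1.10 ± 0.08 (adjusted p = 1.13e-05), and 2 further AMACR probes rose by 1.12 ± 0.11 and 1.33 ± 0.12. Of 21 cholesterol genes TM7SF2 and the exporter gene ABCG1 rose, ABCG1 by 0.77 ± 0.14 (adjusted p = 0.0072), and the list's median was 0.03. ABCG1 had 5 probes, and none of the further ones was called. They differed by 0.15 ± 0.15, -0.10 ± 0.21, 0.24 ± 0.15 and 0.55 ± 0.18 (lowest adjusted p 0.148 over all kept probes). Of 16 NRF2 targets only the quinone reductase gene NQO1 passed, with a rise of 0.64 ± 0.11 (adjusted p = 0.00528), and of 24 autophagy and lysosome genes only the sialidase gene NEU1, with a rise of 0.83 ± 0.13 (adjusted p = 0.00258). STING1, the DNA-sensing adaptor gene of the innate immune list, rose by 0.80 ± 0.18 (adjusted p = 0.0224), and IFNGR2, an interferon gamma receptor gene, by 0.34 ± 0.09 (adjusted p = 0.0414), with calls lost in 5 and 8 of 12 leave-one-array-out fits (highest adjusted p 0.0888 and 0.14). The lists of MHC class I presentation (14 measured) and NF-kB targets (9 measured) had 0 calls with limma, 2 and 1 unadjusted p under 0.05, and medians of -0.01 and -0.08. These counts rest on the brightest probe, which for the NF-kB target CXCL8 differed by -0.34 ± 0.11 (adjusted p = 0.103). A second CXCL8 probe was called, at -1.05 ± 0.17 (adjusted p = 0.00561 over all kept probes). Among immediate early genes, KLF6 fell by 0.67 (adjusted p = 0.00125).

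The mutant arrays were set beside these values for the genes with the largest changes. The 2 comparisons below share arrays with the main one, so their values are given side by side and not as independent evidence. In the mutants against control vector 1494 genes changed (12.2%), and in the mutants against wild-type SPOP 1437 (11.8%). Some genes differed from control vector in both cell groups. IFI44 was -4.58 ± 0.11 in the mutants minus control vector, beside -4.15 ± 0.13 in wild-type SPOP minus control vector, and TMEFF2 -3.15 ± 0.09 beside -2.69 ± 0.11. PLXDC2 was 2.17 ± 0.10 beside 2.11 ± 0.11, and TRIM49 -1.76 ± 0.08 beside -1.85 ± 0.09, fitted differences that are no bounds since 1 group was at the detection limit. For PLXDC2 and TRIM49 the mutants minus wild-type SPOP gave 0.06 ± 0.10 (adjusted p = 0.746) and 0.08 ± 0.08 (adjusted p = 0.55). Other genes did not pass in the mutants against control vector. SDCBP2 was 0.24 ± 0.12 in the mutants minus control vector (adjusted p = 0.229), CDKN1A 0.24 ± 0.11 (adjusted p = 0.19), TM4SF1 -0.10 ± 0.10 (adjusted p = 0.57) and CD24 0.05 ± 0.08 (adjusted p = 0.744), and each differed in the mutants minus wild-type SPOP, by -1.57 ± 0.12, -1.02 ± 0.11, 1.28 ± 0.10 and 0.95 ± 0.08. The VCX genes lay between, with VCX3B at -1.72 ± 0.13 in the mutants minus control vector and at 1.11 ± 0.13 in the mutants minus wild-type SPOP (adjusted p = 0.000319). SLC26A3, which fell with wild-type SPOP, rose by 1.45 ± 0.09 in the mutants minus control vector (adjusted p = 1.17e-06), as did SPOCK1 by 0.75 ± 0.09 (adjusted p = 0.000261). These are the 2 named genes described here that were lower than control vector with wild-type SPOP and over 1.5-fold higher than it with the mutants. Below that size, EAF2, FKBP5 and RGS2 also fell with wild-type SPOP and rose in the mutants minus control vector. EAF2, a gene of the androgen-induced list, fell by 0.61 with wild-type SPOP (adjusted p = 0.00269). The rises in the mutants minus control vector were 0.55 ± 0.08 for EAF2 (adjusted p = 0.00125), 0.36 ± 0.08 for FKBP5 (adjusted p = 0.0127) and 0.36 ± 0.07 for RGS2 (adjusted p = 0.00851).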

How the data were processed

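Total RNA was labelled as cRNA and hybridised to Illumina bead arrays. Per the file headers, the deposited table holds a signal intensity and a detection p-value for each of 47323 probes on 12 arrays, and the sources used here do not give whether background was subtracted. The authors also deposited log2 values, made with lumi per the submitters' processing notes (the version is not given there); they have equal quantiles and were used as an alternative.

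Background correction and quantile normalization of the intensities used neqc (limma 3.58.1, R 4.3.3, offset 16). Probes with a detection p-value under 0.05 on at least 2 of 12 arrays were kept (23133), and the brightest probe stood for a gene. A model with 5 group means over all 12 arrays was fitted with limma, and p-values were adjusted by Benjamini-Hochberg. Where a group had no detected array, the fold is the bound "at least", from the lowest detected level on each array of that group, or the probe's own level if higher. The number of arrays limits the precision. On simulated data for wild-type SPOP against control vector over 12227 genes, 89% of log2 changes of 1 and 33% of 0.5 were recovered, and 4 of 126 calls were unchanged genes.

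Genes named are the 25 largest rises and falls whose arrays did not overlap (1 of the 10 largest falls is not reported here), up to 6 called or 3 uncalled members of lowest p in each list described, a set of SPOP, androgen and interferon genes, and probes of opposite sign. The members and the 51 lists were chosen with earlier results of these data known. Promoters were matched by symbol to RefSeq entries (GRCh38.p14), and VCX and VCY aligned with Biopython 1.88. Alternatives changed the background, scaling, filter, model and probe choice, or left out 1 array.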

Additional observations from a re-analysis of the deposited data

Results flagged for a closer look

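Probes with no gene listed in the annotation were outside the comparison of named genes. Of 6619 such probes that passed the detection filter, 112 were called between wild-type SPOP and control vector by limma (1.69%), of which 54 were higher and 58 lower with wild-type SPOP, and 17 differed by over 2-fold.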

How the results depend on the processing

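Of 149 called genes named by the rule, 122 had a value under all 26 alternatives and 62 of these kept their call throughout. The other 27 had none under some stricter filter, and 21 of these kept their call wherever they had a value. None of the 149 reversed. Leaving out 1 array in turn, 95 kept their call in all 12 fits. With all arrays, 54 calls were lost with the detected-probe covariate, 31 with equal medians of all probes, 29 with the replicate block, 19 with only the 6 arrays, 14 with averaged probes and at most 8 in each of the other 9 settings. The count of changed genes, 752 as reported, was 1164 with a normexp offset of 50, 1375 without background correction, 1286 on the authors' deposited log2 values, 1259 with a trended, robust variance and 343 with the number of detected probes as a covariate. It ranged from 403 to 764 without 1 array. The count over 2-fold, 84 as reported, was 43, 23 and 14 in the first 3 of these settings, where differences are compressed, and ranged from 84 to 89 without 1 array. The share of changed genes that rose was 50.1% as reported, 48.9% to 51.5% without 1 array, and 28.5% (169 rose, 424 fell) when arrays were scaled to equal medians of all probes, which moved the median of all genes by -0.1. The cause of these differences was not tested. Deviations of same-numbered arrays correlated at -0.06, 0.04 and -0.06. No pairing by number was seen, though so few arrays cannot exclude one. The fit with the replicate number as a block called 543 genes. The median of the replication list ranged from -0.45 to -0.19 over the alternatives, that of the ER chaperone list from -0.36 to -0.13 and that of the single-copy Y-linked list from 0.18 to 1.09, while the medians of the p53 list (-0.04 to 0.12) and the interferon list (-0.09 to 0.10) changed sign. Genes detected on no array of a group have only a bound on their fold.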
